A study of Mus musculus with 4 samples.

Results

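The genes described here make cholesterol and fatty acids in 4 mouse mammary tumours. They are 35 genes listed as the enzymes, regulators and carriers of both pathways, and each was read at the probe set that carries only its symbol and is the brightest over the 4 arrays. Of the 35, 34 had such a probe set among 18193 genes named on the array, Acat2 was not analysed here, and 32 were bright enough to be tested. The tumours grew in nude mice, which lack a thymus but supply stroma, vessels and myeloid cells, after transplantation of Eph4 cells, an established mouse mammary epithelial line. The transplanted cells of both groups expressed ETV6-NTRK3, an oncogenic fusion of part of the transcription factor ETV6 with the NTRK3 receptor kinase. The 2 Eph_EN tumours carried the fusion alone, and the cells of the 2 Eph_EN_DN tumours also expressed TAM67, a dominant negative c-Jun that blocks AP-1 transcription factors. The comparison asks how much of the fusion's tumour programme passes through AP-1. The labels give no untransduced tumour, no age of the mice, no promoter for either construct, and nothing on whether the cells were clones or the tumours came from separate mice. The p-values therefore rest on the spread between single samples of a group, shared in the fit over genes of like intensity. That spread may be technical.

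Cholesterol is built from acetyl-CoA through mevalonate and squalene, and fatty acids from the same acetyl-CoA through malonyl-CoA. Both routes are switched on by the SREBP transcription factors, which Scap escorts out of the endoplasmic reticulum when sterols are low and which the Insig proteins hold back when sterols are high. SREBP-2 acts mainly on the sterol genes and SREBP-1 mainly on the fatty acid genes, and in the mammary gland the fatty acid route supplies milk fat.

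No gene of cholesterol or fatty acid synthesis passed the test between the Eph_EN and Eph_EN_DN tumours, and most of the differences were small. All differences below are Eph_EN_DN minus Eph_EN on the scale log2(intensity + 16), with 2 tumours in each group, and p-values are from limma fitted to all 13331 genes tested and adjusted by the Benjamini-Hochberg method. At an adjusted p under 0.05, 0 of the 32 members passed in either direction, where 0.555% of all genes did (0.135% higher and 0.42% lower in Eph_EN_DN tumours), and at an adjusted p under 0.10 again 0 did, against 0.833% of all genes. At 0.10, though not at 0.05, Mvk passed in 4 of the other fits: with the dimmest 60% left out (0.0765), without Eph_EN tumour 1 (0.0876), with median centring (0.0900) and with a robust variance (0.0967). At an unadjusted p under 0.05 the fit held 4 members or 12.5% where 9.8% of all genes did. Of these, 1 lay above 0 (Lss, 3.12% against 4.86% of all genes) and 3 below (Mvk, Thrsp and Elovl6, 9.38% against 4.94%). On this scale no member differed by 1 or more, a 2-fold change, which 1.22% of all genes did, and the values ran from -0.87 for Thrsp to 0.57 for Lss. With a pseudocount of 1 in place of 16 Thrsp was past it at -1.13, and without Eph_EN_DN tumour 1 Fasn was at 1.04. The 95% interval of the difference, not adjusted over genes, lay wholly between -1 and 1 for 28 of 32 members (87.5%, against 78.6% of all genes). The exceptions were Mvk (-1.26 to -0.38), Thrsp (-1.41 to -0.33), Lss (0.13 to 1.02) and Fasn (-0.090 to 1.20). For most members a change larger than 2-fold on this scale is thus outside the interval, while smaller changes could not be resolved with 2 tumours a group.

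**Figure D1:**
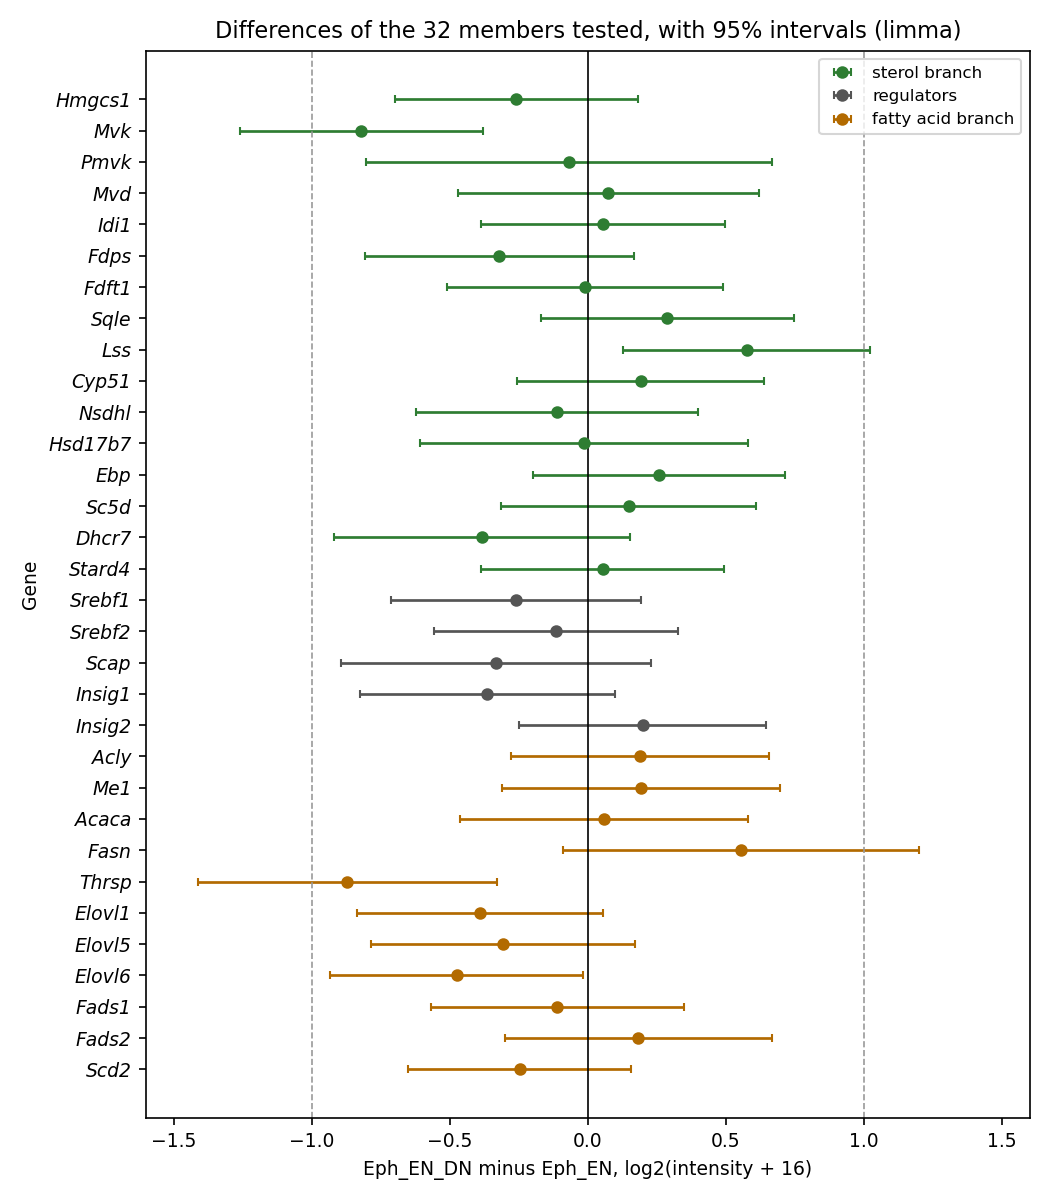
Difference (x axis, Eph_EN_DN minus Eph_EN in log2(intensity + 16)) of each of the 32 members tested (y axis, in pathway order), with points for limma's estimate and bars for its 95% interval; dashed lines mark -1 and 1. The intervals of Mvk, Thrsp, Lss and Fasn cross a dashed line, and the other 28 do not.

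The sterol and fatty acid branches were compared by their medians, which carry no test. The 16 sterol genes tested (17 enzymes and the carrier Stard4 were listed) had a median difference of 0.023, with 8 above and 8 below 0. The 11 fatty acid genes tested had a median of -0.11, with 5 above and 6 below 0, and the 5 regulators one of -0.26, with 1 above and 4 below. Over all genes tested the median was 0.019, and 52.2% lay above 0. Relative to the Eph_EN mean, the sterol median was -0.029 and 0.029 in the Eph_EN tumours and 0.013 and 0.048 in the Eph_EN_DN tumours. For the fatty acid genes it was -0.15 and 0.15 in Eph_EN and -0.15 and -0.16 in Eph_EN_DN tumours, so that both Eph_EN_DN tumours lay beside Eph_EN tumour 1. Sterol minus fatty acid, the branches' median differences lay 0.13 apart. Taken from the medians of each tumour, sterol minus fatty acid was 0.12 and -0.12 in Eph_EN and 0.16 and 0.21 in Eph_EN_DN tumours. The pooled SD of these tumour values within groups was 0.12. The sterol median was -0.17 without Eph_EN tumour 1 and 0.069 without Eph_EN tumour 2. It was 0.048 without Eph_EN_DN tumour 1, 0.013 without Eph_EN_DN tumour 2 and -0.0035 with quantile normalization. The fatty acid median was -0.26 without Eph_EN tumour 1. The brightest probe set was chosen again with each array left out, and without Eph_EN tumour 1 Stard4 was thus read at another probe set. With each gene's probe sets averaged the fatty acid median was -0.036 and the branches differed by 0.064, with dim probe sets kept these were -0.18 and 0.23, and without Eph_EN_DN tumour 1 the branches differed by 0.21. Without Eph_EN tumour 2 the regulators' median was -0.043, and without Eph_EN tumour 1 it was -0.39.

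Within each branch the earlier and the later steps had medians of opposite sign, in opposite order. The 6 genes of the mevalonate steps had a median of -0.16 and the 9 genes from squalene to cholesterol one of 0.15. The 5 genes of fatty acid supply and synthesis had a median of 0.19 and the 6 genes of elongation and desaturation one of -0.28. Without Eph_EN tumour 1, Acly (-0.019), Me1 (-0.092), Acaca (-0.20) and Thrsp (-0.85) lay below 0 and Fasn (0.14) above. The supply and synthesis median was then below 0, on the same side as elongation and desaturation. In the mevalonate and the elongation and desaturation genes both Eph_EN_DN medians (-0.28 and -0.11; -0.20 and -0.30) were below both Eph_EN medians, as they were for the regulators. In the squalene to cholesterol and the fatty acid supply and synthesis genes the groups overlapped.

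**Figure D2:**
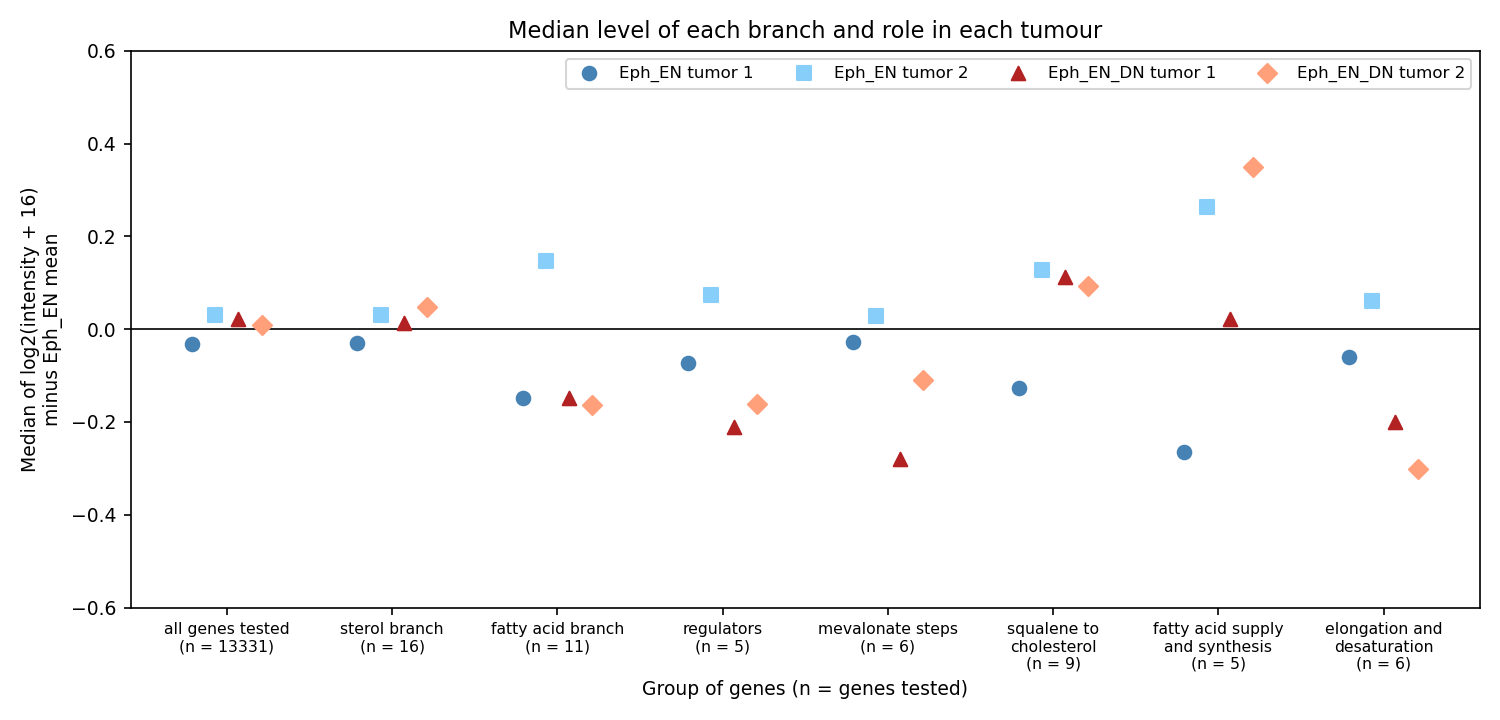
Median level (y axis, log2(intensity + 16) minus the Eph_EN mean) of all genes tested, of each branch and of each role (x axis, with the number of genes tested), with 1 point for each tumour. The sterol branch stays within 0.05 of 0 in every tumour, and Eph_EN tumour 1 and both Eph_EN_DN tumours share the low fatty acid values.

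The groups did not overlap in 18 of 32 members (56.2%, where 40.2% of all genes did not overlap). In 7 both Eph_EN_DN tumours were the higher ones (21.9%, against 20.2% of all genes), and 6 of these were sterol genes: Idi1, Sqle, Lss, Cyp51, Ebp and Sc5d. In 11 they were the lower ones (34.4%, against 20% of all genes). These were 4 sterol genes (Hmgcs1, Mvk, Fdps and Dhcr7), 4 fatty acid genes and 3 regulators. The genes tested were 16 of the sterol branch, 11 of the fatty acid branch and 5 regulators. None of the 18 passed the test.

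**Figure D3:**
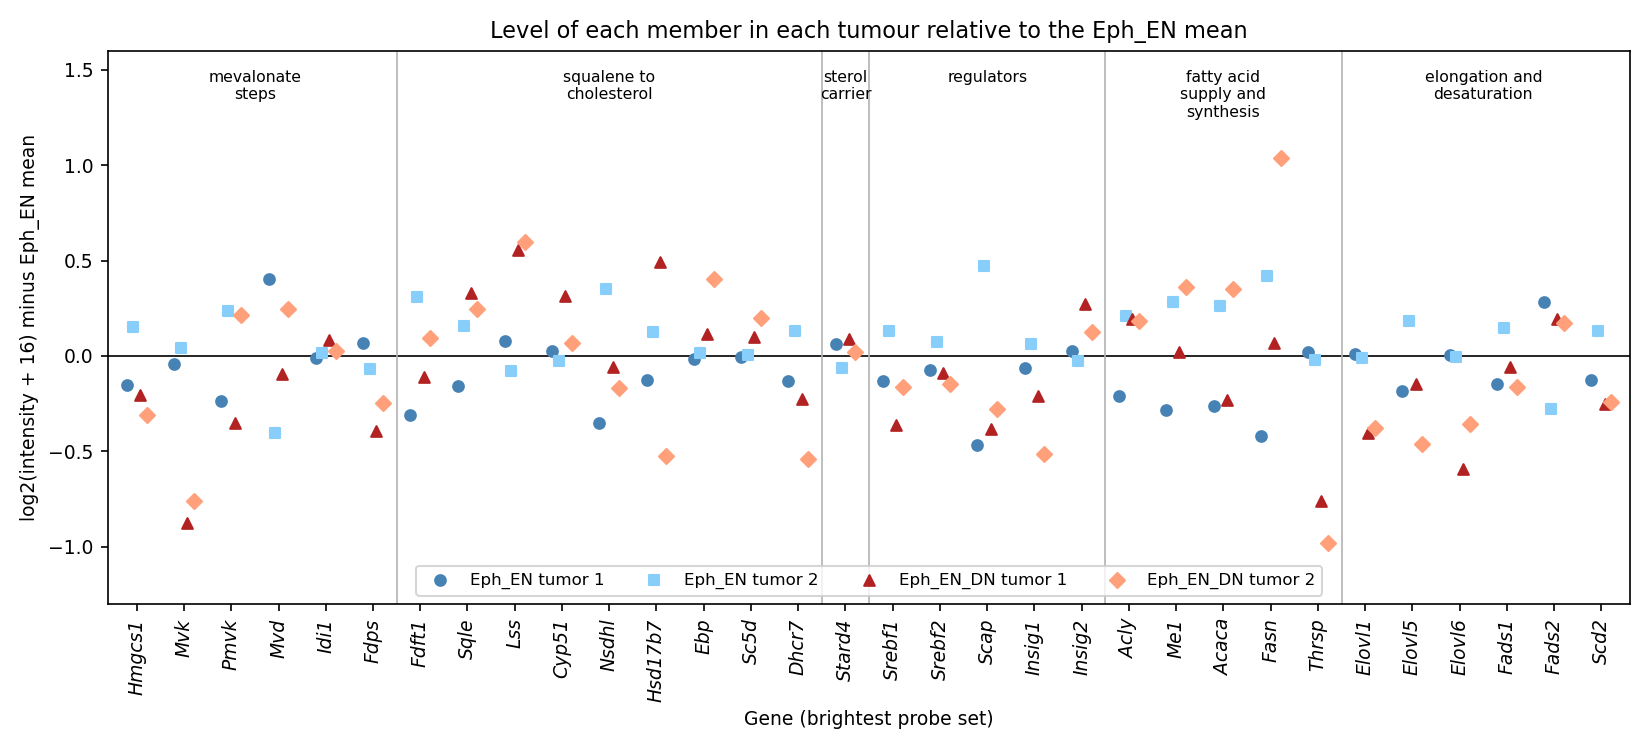
Level of each member tested (x axis, by role) in each tumour (y axis, log2(intensity + 16) minus the gene's Eph_EN mean; 1 point for each tumour). Mvk and Thrsp stand lowest in both Eph_EN_DN tumours, Lss stands well above 0 in both, and Fasn is high in Eph_EN_DN tumour 2 alone.

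The promoters of the members were searched for known motifs, because SREBP acts at sterol regulatory elements together with NF-Y and Sp1, and AP-1 is the factor that TAM67 blocks. RefSeq windows from 250 bases before to 50 after a start site (build GRCm38.p6) were found for 29 members, 39 windows in all, and were searched on both strands. The letters TCACNCCAC of the sterol regulatory element stood in 1 member, Hmgcs1, and in 1.24% of all 32851 windows. The NF-Y letters CCAAT stood in 64.1% of the member windows against 37.4% of all, and in 13 of 14 sterol genes with a window against 7 of 10 fatty acid genes. The Sp1 letters GGGCGG stood in 69.2% of the member windows against 35.7% of all, in 13 of 14 sterol and 4 of 10 fatty acid genes. The E-box letters CACGTG stood in 17.9% against 7.15%. The AP-1 letters TGANTCA stood in 2 members, Dhcr7 and Me1, or 5.13% of the member windows against 7.81% of all. With any base allowed at N, this pattern is looser than the TGAGTCA and TGACTCA printed below, in the share of all windows too. The CRE letters TGACGTCA stood in Elovl5 alone (2.56% against 1.79%). The LXR letters, a pair of AGGTCA spaced by NNNN, stood in none (0.015% of all windows). A gene was counted if any of its windows matched, and the share by gene was not taken over all genes. Windows of a gene could overlap, as those of Scap with the E-box did. A match is a description of the letters and not a bound site.

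Printed here, in the gene's own direction with the letters in capitals, are Hmgcs1 for the sterol element (chr13:119690101-119690400, plus strand), Mvk and Thrsp for NF-Y, as the members with the lowest difference of the sterol and of the fatty acid branch (chr5:114444019-114444318, plus; chr7:97417501-97417800, minus), and Dhcr7 and Me1 for AP-1 (chr7:143829964-143830263, plus, 1 of 3 windows of the gene; chr9:86695865-86696164, minus, 1 of 2).
Hmgcs1: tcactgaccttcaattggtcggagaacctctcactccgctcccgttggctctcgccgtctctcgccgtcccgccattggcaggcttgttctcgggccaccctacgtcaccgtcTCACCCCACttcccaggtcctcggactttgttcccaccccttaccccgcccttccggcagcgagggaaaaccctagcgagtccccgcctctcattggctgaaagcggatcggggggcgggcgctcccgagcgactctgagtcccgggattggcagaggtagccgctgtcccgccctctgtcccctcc
Mvk: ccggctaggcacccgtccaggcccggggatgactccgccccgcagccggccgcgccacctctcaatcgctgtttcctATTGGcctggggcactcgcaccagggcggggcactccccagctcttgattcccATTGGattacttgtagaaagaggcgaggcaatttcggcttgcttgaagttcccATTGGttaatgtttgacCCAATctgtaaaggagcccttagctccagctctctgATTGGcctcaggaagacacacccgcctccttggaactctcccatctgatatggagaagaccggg
Thrsp: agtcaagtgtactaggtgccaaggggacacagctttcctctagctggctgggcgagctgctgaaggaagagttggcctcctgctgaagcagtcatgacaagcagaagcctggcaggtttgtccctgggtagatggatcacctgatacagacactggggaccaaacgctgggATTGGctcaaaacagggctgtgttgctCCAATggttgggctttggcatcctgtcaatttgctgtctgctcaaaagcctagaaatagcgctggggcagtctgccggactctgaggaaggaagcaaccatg
Dhcr7: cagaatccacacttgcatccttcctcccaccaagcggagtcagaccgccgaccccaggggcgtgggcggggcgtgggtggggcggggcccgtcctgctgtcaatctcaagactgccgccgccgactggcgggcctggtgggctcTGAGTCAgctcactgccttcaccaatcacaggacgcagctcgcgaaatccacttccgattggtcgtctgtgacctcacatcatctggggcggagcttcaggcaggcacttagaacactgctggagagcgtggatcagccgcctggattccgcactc
Me1: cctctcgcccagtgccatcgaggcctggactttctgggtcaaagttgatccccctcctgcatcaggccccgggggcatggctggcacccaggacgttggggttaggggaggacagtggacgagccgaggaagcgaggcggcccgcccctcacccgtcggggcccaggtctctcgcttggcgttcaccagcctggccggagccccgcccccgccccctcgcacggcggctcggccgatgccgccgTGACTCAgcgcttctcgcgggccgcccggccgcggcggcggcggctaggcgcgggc
The Mvk window holds CCAAT 5 times, a number reached by 0.271% of all windows, and the Thrsp window 2 times. The differences of the AP-1 pair were -0.38 for Dhcr7 and 0.19 for Me1, on either side of 0, and neither passed the test.

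The mevalonate steps turn acetyl-CoA into farnesyl diphosphate. Mvk, the kinase that phosphorylates mevalonate, had the lowest difference of the sterol branch. Its brighter probe set read 148 and 158 units in the Eph_EN tumours against 76.0 and 83.7 in the Eph_EN_DN tumours. The groups were far apart beside the gap within each, and the difference was -0.82 ± 0.21 (SE, adjusted p = 0.116). Its other probe set read 39.1 and 62.8 against 41.2 and 3.54 units (-0.98), where the groups overlapped. Hmgcs1, the synthase that makes HMG-CoA and the gene with the sterol element above, read 673 and 832 units in Eph_EN against 646 and 600 in Eph_EN_DN tumours (-0.26 ± 0.21, adjusted p = 0.733). The value was -0.41 without Eph_EN tumour 1 and -0.11 without Eph_EN tumour 2. All 4 of its probe sets tested lay below 0, from -0.39 to -0.17. Fdps, which makes farnesyl diphosphate, read 78.1 and 69.7 against 52.3 and 59.6 units (-0.32 ± 0.23, adjusted p = 0.698), again with both Eph_EN_DN tumours lower. Idi1, the isomerase of the pathway's isoprene unit, was nearly level at 156 and 159 against 168 and 161 units (0.055). Mvd, which makes that unit, read 194 and 104 against 132 and 172 (0.074), and Pmvk, the kinase after Mvk, 29.8 and 47.6 against 26.3 and 46.6 (-0.069). In these last 2 genes the tumours of a group differed more than the groups did.

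The steps from squalene to cholesterol contained the highest difference of all members. Lss, which folds squalene epoxide into lanosterol, read 72.5 and 63.5 units in Eph_EN against 107 and 111 in Eph_EN_DN tumours at its brightest probe set. Both Eph_EN_DN tumours were higher (0.57 ± 0.21, adjusted p = 0.362). A further Lss probe set, left out as dim, read 25.6 and 32.8 against 18.6 and 18.7 units, the opposite order. Sqle, the epoxidase that supplies Lss, read 272 and 342 against 388 and 364 units (0.29 ± 0.22, adjusted p = 0.714), and its groups did not overlap. The value was 0.13 without Eph_EN tumour 1 and 0.44 without Eph_EN tumour 2. Ebp, a sterol isomerase, read 199 and 204 against 219.5 and 272 units (0.26). Cyp51, which demethylates lanosterol, read 115 and 111 against 144 and 119 units (0.19), but its 3 probe sets ran from -0.41 to 0.27. Sc5d, a sterol desaturase, read 68.2 and 68.6 against 74.3 and 80.9 units (0.15), and its 3 probe sets ran from -0.29 to 0.52. Dhcr7, the reductase of the last step to cholesterol, was the exception among the genes with separate groups, with 58.8 and 73.8 against 54.2 and 40.3 units (-0.38 ± 0.25, adjusted p = 0.672; -0.25 without Eph_EN tumour 2 and -0.22 without Eph_EN_DN tumour 2). Fdft1, squalene synthase, read 72.6 and 120.2 against 85.8 and 101 units (-0.0090). Nsdhl read 126 and 216 against 159 and 146 (-0.11), and Hsd17b7 70.2 and 86.8 against 117 and 49.5 (-0.014), and both act in removing methyl groups from the sterol ring. At their brightest probe sets Fdft1, Nsdhl and Hsd17b7 overlapped between the groups. Tm7sf2, a sterol reductase, was too dim to be tested, at 39.1 and 2.87 against 26.9 and 21.6 units. Stard4, which carries sterol between membranes, was level at 125 and 113 against 127 and 121 units (0.054).

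The regulators were mostly lower in Eph_EN_DN tumours in value, and none passed the test. Insig1, itself a classical SREBP target, read 263 and 288 units in Eph_EN against 235 and 188 in Eph_EN_DN tumours (-0.36 ± 0.22, adjusted p = 0.626; -0.21 without Eph_EN_DN tumour 2). Insig2, its paralogue with the same retaining role, stood on the other side at 255 and 246 against 305 and 275 units (0.20 ± 0.21, adjusted p = 0.813; 0.13 without Eph_EN_DN tumour 1). Neither pair overlapped, and all 3 Insig2 probe sets lay above 0 with groups that did not overlap. The second of them read 177 and 141 against 268 and 224 units (0.59, adjusted p = 0.415 with every probe set tested separately). Srebf1, which encodes SREBP-1, read 491 and 594 against 417 and 482 units (-0.26 ± 0.21, adjusted p = 0.738), and Srebf2, which encodes SREBP-2, 131 and 147 against 129.8 and 124 (-0.12), both without overlap. Both were nearer 0 without Eph_EN tumour 2 (-0.13 and -0.043) and farther from it without Eph_EN tumour 1 (-0.39 and -0.19). Scap read 252 and 497 against 268 and 289.8 units (-0.33 ± 0.27, adjusted p = 0.733). Its high value was in Eph_EN tumour 2 alone, and the difference was 0.14 without that tumour and -0.80 without Eph_EN tumour 1.

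**Figure D4:**
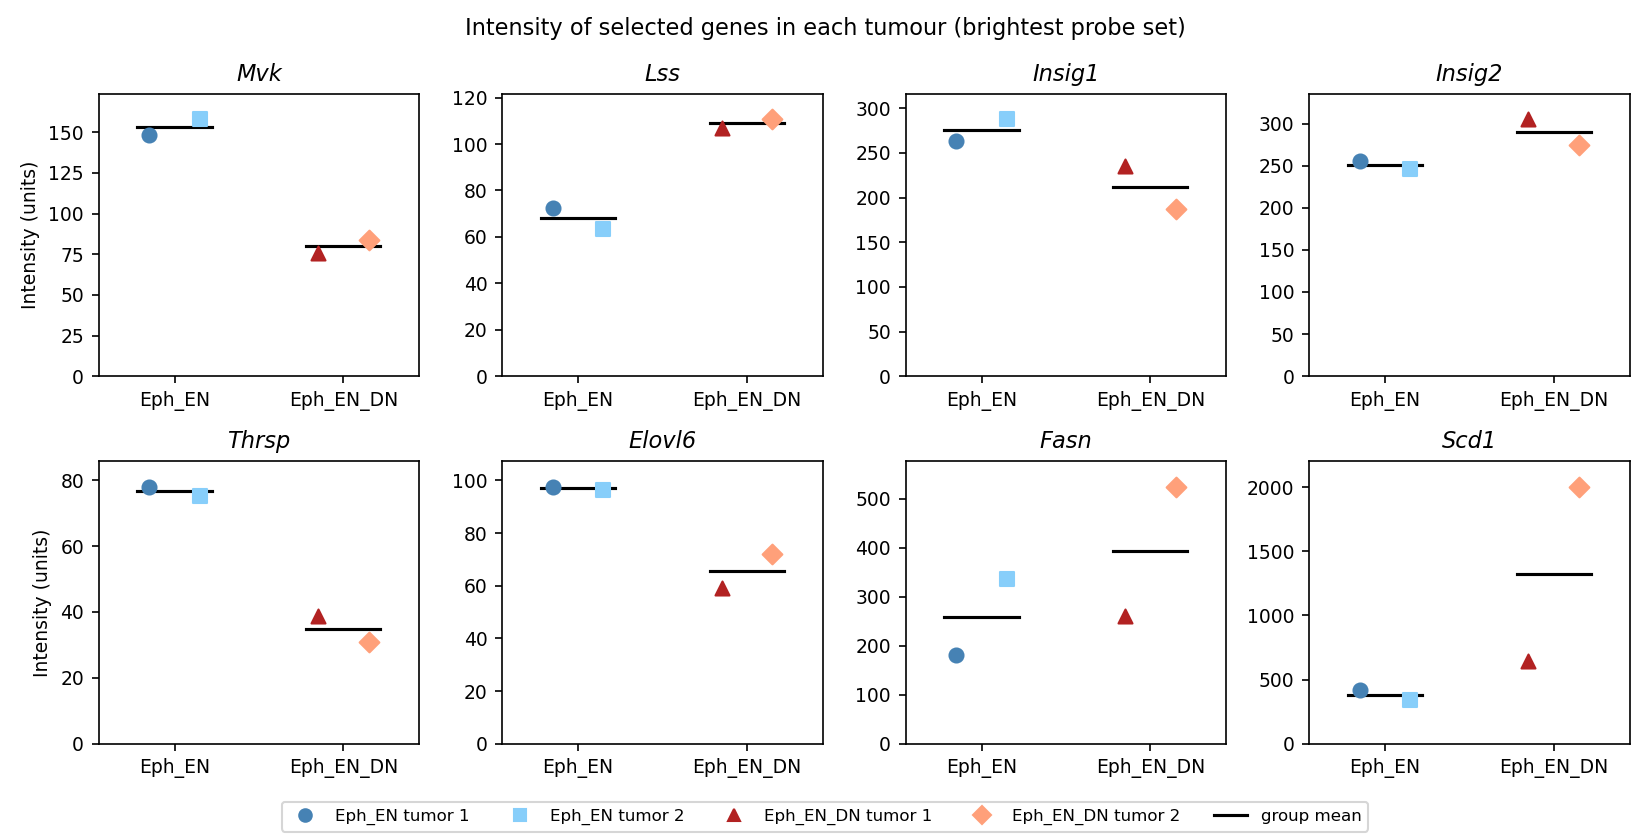
Intensity (y axes, linear units from 0) of Mvk, Lss, Insig1, Insig2, Thrsp, Elovl6, Fasn and Scd1 in each tumour of the 2 groups (x axes), with bars for the group means. The groups are separate in all but Fasn, and Fasn and Scd1 are highest in Eph_EN_DN tumour 2 at 524 and 2004 units.

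Of the 5 genes of fatty acid supply and synthesis tested, only Thrsp had groups that did not overlap. Fasn, the synthase itself, read 181 and 335 units in Eph_EN against 260.1 and 524 in Eph_EN_DN tumours (0.55 ± 0.30, adjusted p = 0.582), and the groups overlapped. The value was 0.069 without Eph_EN_DN tumour 2 and 1.04 without Eph_EN_DN tumour 1, and 0.14 and 0.97 without Eph_EN tumour 1 and 2. Acaca, which makes malonyl-CoA, read 99.5 and 151 against 102 and 161 units (0.059), and Me1, which supplies NADPH, 127 and 195 against 160.2 and 206 (0.19 ± 0.24, adjusted p = 0.844). Acly, which releases acetyl-CoA from citrate, read 275 and 372 against 368 and 366 units (0.19), and its 4 probe sets tested ran from -0.22 to 0.19. At the brightest probe sets of Fasn, Acaca, Me1 and Acly the lowest value was in Eph_EN tumour 1. Other tested probe sets were mixed, with Acaca again lowest there (17.9 units) and Me1 lowest in Eph_EN_DN tumour 2 (148.6 units). The other Acly probe sets went both ways. Thrsp, a nuclear protein that promotes fat synthesis in the mammary gland and in fat tissue, had the lowest difference of all members. It read 78.0 and 75.1 units in Eph_EN against 38.7 and 30.9 in Eph_EN_DN tumours at its brightest probe set (-0.87 ± 0.26, adjusted p = 0.213). With its probe sets averaged it stood at -0.48, with a pseudocount of 64 at -0.51 and with a pseudocount of 1 at -1.13. The second read 52.8 and 31.5 against 52.0 and 26.7 units (-0.084), and another, left out as dim, 4.15 and 12.3 against 10.5 and 61.5, highest in Eph_EN_DN tumour 2. Acacb, the second carboxylase, was too dim to be tested, at 12.1 and 8.73 against 0.875 and 7.91 units, lower in both Eph_EN_DN tumours.

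Of the 6 elongases and desaturases, 5 had differences below 0. Elovl6, which lengthens palmitate, read 97.6 and 96.5 units in Eph_EN against 59.1 and 72.1 in Eph_EN_DN tumours (-0.47 ± 0.22, adjusted p = 0.486). Elovl1, which makes very long saturated chains, read 260.0 and 256 against 191 and 195 units (-0.39 ± 0.21, adjusted p = 0.576). Both genes separated the groups, with the Eph_EN tumours within a few units of each other, but the 4 Elovl1 probe sets ran from -0.54 to 0.057. Scd2, which puts the first double bond into saturated chains, read 1364 and 1634 against 1252 and 1258 units (-0.25 ± 0.19, adjusted p = 0.718; -0.38 without Eph_EN tumour 1 and -0.12 without Eph_EN tumour 2), and its 3 probe sets all lay below 0, from -0.55 to -0.081. Elovl5, the elongase of polyunsaturated chains, read 287 and 376 against 295 and 234 units (-0.31 ± 0.23, adjusted p = 0.708), with overlap. The value ran from -0.49 without Eph_EN tumour 1 to -0.12 without Eph_EN tumour 2. The polyunsaturated chain desaturases Fads1 and Fads2 read 185 and 230.4 against 198 and 183 units (-0.11) and 157 and 101 against 147 and 144 units (0.18), and both overlapped.

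A second probe set showed how far the value of a member depends on where its transcript was read. Of the 65 probe sets of members bright enough to test, 0 passed an adjusted p under 0.05. An unadjusted p under 0.05 was found for 5 of them (Mvk, Thrsp, Lss, and one each of Insig2 and Scd2). In the main fit 9.8% of all genes had one at their brightest probe set, and the share over all probe sets was not taken. Of 20 members with more than 1 such probe set, 12 had differences of 1 sign and 8 of both signs. The 12 included Mvk, Hmgcs1, Fdps, Scd2 and Elovl5 below 0 and Insig2 and Idi1 above 0. The 8 were Acly, Cyp51, Elovl1, Fads1, Fdft1, Hsd17b7, Me1 and Sc5d.

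**Figure D5:**
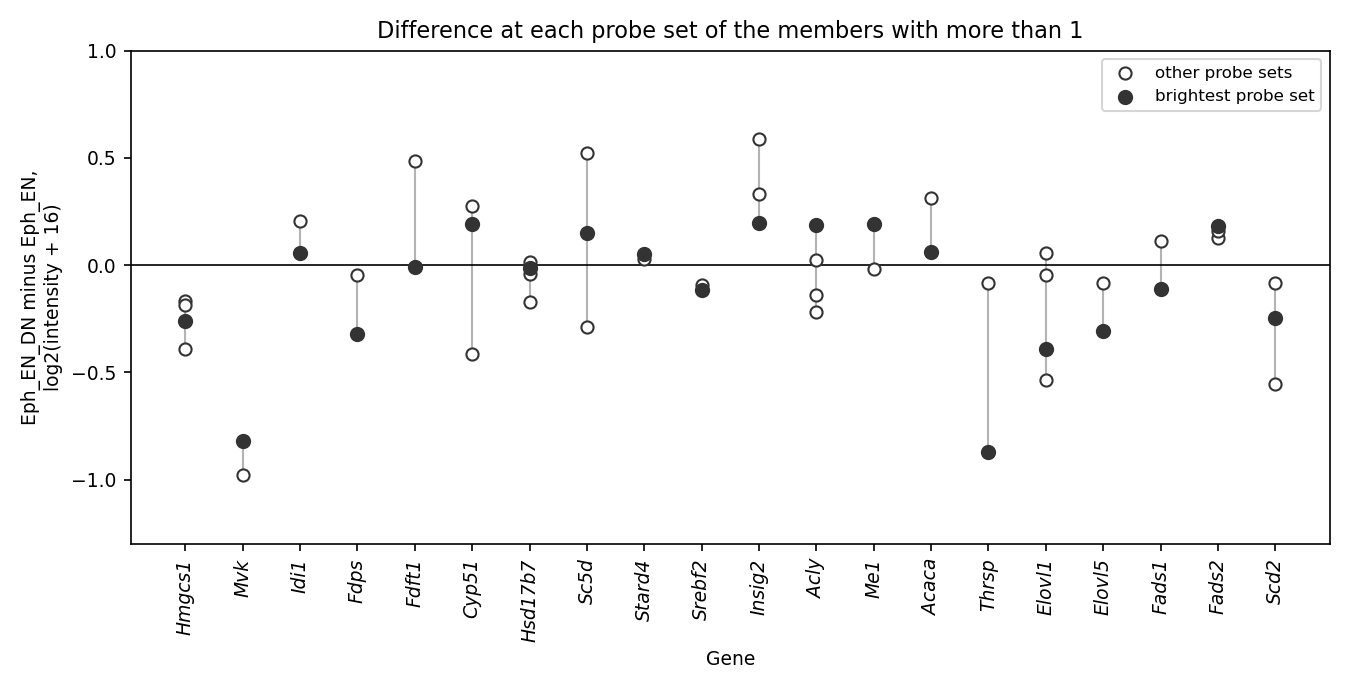
Difference (y axis, Eph_EN_DN minus Eph_EN in log2(intensity + 16)) at every tested probe set of the 20 members with more than 1 (x axis), with the brightest filled. Both Mvk probe sets lie under -0.8 and all 3 of Insig2 above 0, whereas those of Sc5d run from -0.29 to 0.52.

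Of 25 other genes of sterol and fatty acid metabolism, 20 were named on the array and 19 were tested. Of these 19, 0 passed the test over all genes, 5 had an unadjusted p under 0.05 (2 above and 3 below 0, where 9.8% of all genes had one), and the median difference was 0.099. The median was -0.030 without Eph_EN_DN tumour 1, -0.046 without Eph_EN_DN tumour 2, -0.068 with the dimmest 60% left out, 0.0010 with probe sets averaged and 0.00011 with median centring. The largest was Scd1, the stearoyl-CoA desaturase of fat and liver and paralogue of Scd2, at 419 and 341 units in Eph_EN against 641 and 2004 in Eph_EN_DN tumours (1.55 ± 0.35, adjusted p = 0.0601). It passed without Eph_EN tumour 1, without Eph_EN_DN tumour 1 and when dim probe sets were kept. Scd2 thus lay below 0 and Scd1 above 0 in the same tumours. Mylip, a ubiquitin ligase that degrades lipoprotein receptors, read 223 and 189 against 119 and 82.7 units (-0.94 ± 0.23, adjusted p = 0.0859). Mlxipl, the carbohydrate-responsive factor of fat synthesis genes, read 103 and 57.5 against 53.8 and 14.5 units (-1.02 ± 0.35, adjusted p = 0.325). The groups did not overlap in any of these 3 genes.

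Markers of other cells differed between the tumours, and in bulk tumours fewer cells of a type and less RNA per cell cannot be told apart. Of 12 adipocyte markers, 10 were named on the array, 6 were tested and 4 rose in Eph_EN_DN tumours at an adjusted p under 0.05 (0.135% of all genes rose). Car3 alone was called with quantile normalization, median centring, averaged probe sets or the replicate block. Fabp4 and Car3 alone were called with a pseudocount of 1 or 64, every probe set tested separately, or the dimmest 60% left out. With no intensity trend or a robust variance 0 were called. The adipocyte median difference was 1.96, and 1.19 without Eph_EN_DN tumour 2, where 4 markers were tested. The summed intensity of the adipocyte markers was 599 and 392 in Eph_EN against 1440 and 6123 in Eph_EN_DN tumours (sums of 10 probe sets, none at 0). It was thus highest in the tumour with the highest Fasn and Scd1. The lowest sum was in Eph_EN tumour 2, which also had the lowest Scd1 (341 units). Fasn did not keep this order, at 335.5 units in Eph_EN tumour 2 against 260.1 in Eph_EN_DN tumour 1. Fibroblast markers summed to 15239 and 21637 against 14310 and 12478 (8 genes tested, 0 called, 7 below 0), and macrophage markers to 14980 and 13082 against 10459 and 8028 (8 tested, 0 called, 7 below 0). The epithelial markers, which check the labelled tissue, summed to 3512 and 3793 against 2930 and 3196, led by Krt8 and Krt18, while Krt19 and Esrp1 were too dim to be tested. Of the 8 tested, 0 were called, 4 lay above 0 (up to 0.67 for Krt14) and 4 below (down to -0.63 for Krt5), with a median of -0.025. Milk genes summed to 207 to 271 units, with 0 called of 3 tested. Wap, a whey protein, was the largest part of the sum at 141 and 103 against 152 and 154 units. Endothelial markers (4 of 6 tested) had a median difference of -0.44 with 0 called, and of 4 skeletal muscle markers tested 1 rose (Myh1), a call lost without Eph_EN_DN tumour 2, with the replicate block, with averaged probe sets and with no intensity trend. With an array left out, up to 4 fibroblast, 3 macrophage and 1 endothelial marker fell. Array medians were 35.6 and 35.9 units in Eph_EN and 38.1 and 40.8 in Eph_EN_DN tumours. The 3' to 5' signal ratio of Gapdh was 0.938 and 1.04 against 1.17 and 1.11, and that of beta-actin 1.11 and 1.19 against 1.31 and 1.34. The 18S rRNA control probe sets had a mean log2(intensity + 16) of 5.43 and 6.40 against 6.76 and 7.43. These 4 measures were each higher in both Eph_EN_DN tumours than in either Eph_EN tumour. The part of these measures in the members' values was not tested.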

How the data were processed

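Total RNA from 4 tumours was extracted with Trizol, column-purified, labelled with biotin and hybridised to Affymetrix mouse arrays, per the labels' protocols. The deposited values are linear intensity units for 45101 probe sets; the authors' probe summary, background correction and scaling are steps not given in the sources used here. Detection calls were not used here, and 4 arrays limit the precision. Names came from the platform annotation, in which 34945 had 1 symbol, 932 several and 9160 none; RefSeq identifiers (GRCm38.p6) matched 34741 and changed 0 symbols.

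Intensities were analysed as log2 after adding 16, which understates differences of dim genes. The 64 control probe sets and the dimmest 40% by mean log2 value were left out, which kept 27022 (22555 with 1 symbol), and each gene's brightest probe set was tested (13331 genes) with limma 3.58.1 in R 4.3.3 (intensity trend, two-sided, no term for the tumour number). Intervals are limma's, at 95%. Standard errors, intervals and p-values rest mostly on a variance shared over genes of like intensity (prior degrees of freedom 14.79). A standard error is thus not the spread of a gene's own values. Every member was named; those given with an error and adjusted p are the 3 with the largest difference in each role (Stard4 counted with the regulators), plus Insig2 and Scd2, added after their values were seen. Other genes come from lists. Members, lists and motifs were chosen with earlier results of these data known. The fit was tested on simulated data. Alternatives were other filters, normalizations, pseudocounts, probe set rules, variance models and thresholds, the replicate block, and each array left out. With an array left out, the dim filter and the brightest probe set were chosen again on the remaining arrays. Equal tumour numbers are not tied together by the labels. Figures used matplotlib 3.10.9.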

Additional observations from a re-analysis of the deposited data

How the results depend on the processing

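At an adjusted p under 0.05, 0 members passed in all 15 other fits. At 0.10, 0 passed in the first fit and Mvk alone in 4 others, down to 0.0765. The lowest adjusted p was that of Mvk except with no intensity trend (Thrsp, 0.391), without Eph_EN_DN tumour 1 (Thrsp, 0.312, with Mvk at 0.470) and without Eph_EN tumour 2 (Fasn, 0.151). Over all genes 74 passed, against 5 with no intensity trend, 35 with a gene's probe sets averaged, 38 with quantile normalization, 44 with every probe set tested separately, and 22 to 151 with an array left out. With the tumour number as a replicate block 0 members and 11 genes passed, and the branch medians kept their values of 0.023 and -0.11. The deviations of equal tumour numbers correlated at -0.065 over 13331 genes.

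The sterol branch median was -0.076 with median centring, where all genes stood at -0.080, and -0.17 to 0.069 with an array left out. The fatty acid median ran from -0.26 to -0.098 and the difference of the branches from 0.092 to 0.21 with an array left out. Over the other settings they ran from -0.21 (median centring) to -0.036 (probe sets averaged) and from 0.064 (probe sets averaged) to 0.23 (dim probe sets kept). Median centring turned Mvd (-0.025), Idi1 (-0.043), Stard4 (-0.044) and Acaca (-0.039) to the other sign. Averaging probe sets turned Fdft1 (0.24), Acly (-0.036) and Fads1 (0.00086), and a pseudocount of 64 turned Hsd17b7 (0.0094). With an array left out the ranges that crossed 0 were Pmvk -0.35 to 0.21, Mvd -0.33 to 0.48, Fdft1 -0.32 to 0.30, Nsdhl -0.46 to 0.24, Hsd17b7 -0.44 to 0.49, Stard4 -0.19 to 0.35, Scap -0.80 to 0.14, Acly -0.019 to 0.40, Me1 -0.092 to 0.47, Acaca -0.23 to 0.35, Fads1 -0.26 to 0.037 and Fads2 -0.098 to 0.46. Without crossing 0, Ebp ran from 0.11 to 0.40, Cyp51 from 0.069 to 0.31 and Sc5d from 0.097 to 0.20. The brightest probe set was chosen again with each array left out. The Stard4 values of -0.19 and 0.35 and the Hsd17b7 value of -0.44 came from another probe set than in the main fit. What else moved the values was not tested. The 19 members not named here as turning sign or crossing 0 kept their sign in all 15 fits.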
